A study of Mus musculus with 32 samples.

Results

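Interleukin-1 beta (IL-1b) was given to cultured mouse cardiac fibroblasts in which the recombinase iCre had been introduced to act on a floxed Pkm allele, and their RNA was compared with that of iCre cells that received no stimulus. The comparison uses 8 of the 32 libraries of the series, 4 titled iCre with IL-1b and 4 titled iCre with SS, whose meaning is not given in the labels. Members were taken by title and replicate number, and libraries with the same number were treated as pairs.

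All cells are labelled as cardiac fibroblasts of the genotype C57BL/6J Pkm2fl/fl at passage 1, so the floxed allele is shared by every group. The iCre IL-1b group was transduced with iCre and treated for 24 h, at a dose of 15 ng/ml in the treatment protocol. That protocol names TAK1fl/fl mice, not Pkm2fl/fl, and also lists TNFa. The iCre TGFb group received transforming growth factor beta at 10 ng/ml, and the iCre bFGF group received basic fibroblast growth factor at 20 ng/ml. The iCre SS group carried the same vector and no stimulus. The LacZ IL-1b and LacZ SS groups were transduced with LacZ, a control that does not recombine the allele. Groups follow the titles, and the treatment tags of the LacZ libraries go against them, with the LacZ IL-1b libraries tagged as a control and the LacZ SS libraries as bFGF. Each group holds 4 libraries. The labels give neither the promoter behind iCre, nor the age or sex of the animals, nor whether a number marks a mouse, a culture or a day. The p-values may for that reason rest on technical spread between samples.

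IL-1b binds the receptor IL1R1, which joins with its accessory protein IL1RAP and recruits MYD88 and the IRAK kinases. TRAF6 and the kinase TAK1, encoded by Map3k7, then activate the IKK complex, which frees NF-kB subunits to enter the nucleus, while parallel kinase cascades act on AP-1 factors. In cardiac fibroblasts IL-1 is known to induce cytokines, chemokines and matrix proteases and to oppose the contractile myofibroblast state. Pkm encodes the pyruvate kinase that ends glycolysis, whose PKM1 and PKM2 forms arise from mutually exclusive exons.

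Total counts ran from 26815949 to 34995038 in the IL-1b libraries and from 24425678 to 30647026 in the SS libraries. Levels are given as CPM, counts relative to library size after scaling with TMM factors, in the order of replicate numbers 1 to 4, with n = 4 libraries in every group. Summed leukocyte markers varied widely between numbers, at 501, 152, 1129 and 80.4 CPM in IL-1b libraries and 368, 113, 822 and 68.9 CPM in SS libraries. The sums were higher with IL-1b in every number, and Lyz2 was their largest single part in every library. Of 15 tested members 4 passed as higher and 0 as lower, while Ptprc and Adgre1 were lower in CPM in every number. The SS library of number 4 stood apart in summed mural cell markers, at 156 CPM beside 632 to 663 CPM in the other SS libraries. Because these are bulk samples, fewer cells of a type and less RNA per cell cannot be told apart. Fibroblast identity genes summed to 5693 to 8208 CPM in IL-1b libraries and 7879.6 to 13204 CPM in SS libraries. Cardiomyocyte markers summed to 4.37 to 5.72 CPM in IL-1b libraries and 22.5 to 92.1 CPM in SS libraries. Of the 11 cardiomyocyte markers only Nppa was at 0 in all 8 libraries.

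IL-1b changed a large share of the genes tested in iCre cells, in both directions. Most tested members of the chemokine, acute-phase, interferon-stimulated, MHC class I and glycolysis lists rose, while 6 of 17 tested contractile genes and several matrix genes fell. Of 16760 genes, 2506 rose (15.0% of those tested) and 2362 fell (14.1%) at an adjusted p under 0.05 in edgeR's quasi-likelihood test with the replicate number as a block. The larger changes leaned upward, since 340 genes rose at least 4-fold and 202 fell at least 4-fold, and 37 rose at least 32-fold where 3 fell as much. The genes that rose at least 4-fold took 3.29% to 4.29% of all counts in IL-1b libraries and 0.317% to 0.556% in SS libraries. Without the block 1488 genes rose and 1146 fell. Without the number 4 libraries, which here and below means those of all 8 groups, 2967 rose and 2512 fell. Scaling by total counts alone moved the balance, with 1931 rising and 2892 falling. In 3200 genes (19.1%) the 4 IL-1b values and the 4 SS values did not overlap. The median log2 fold change over all genes tested was -0.02, and the lists of genes below are set beside that value. The filter on low counts keeps a gene that is high in any group, so members near 0 in SS were tested only through the groups where they are high. A share of tested members is therefore not a share of the list.

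**Figure D1:**
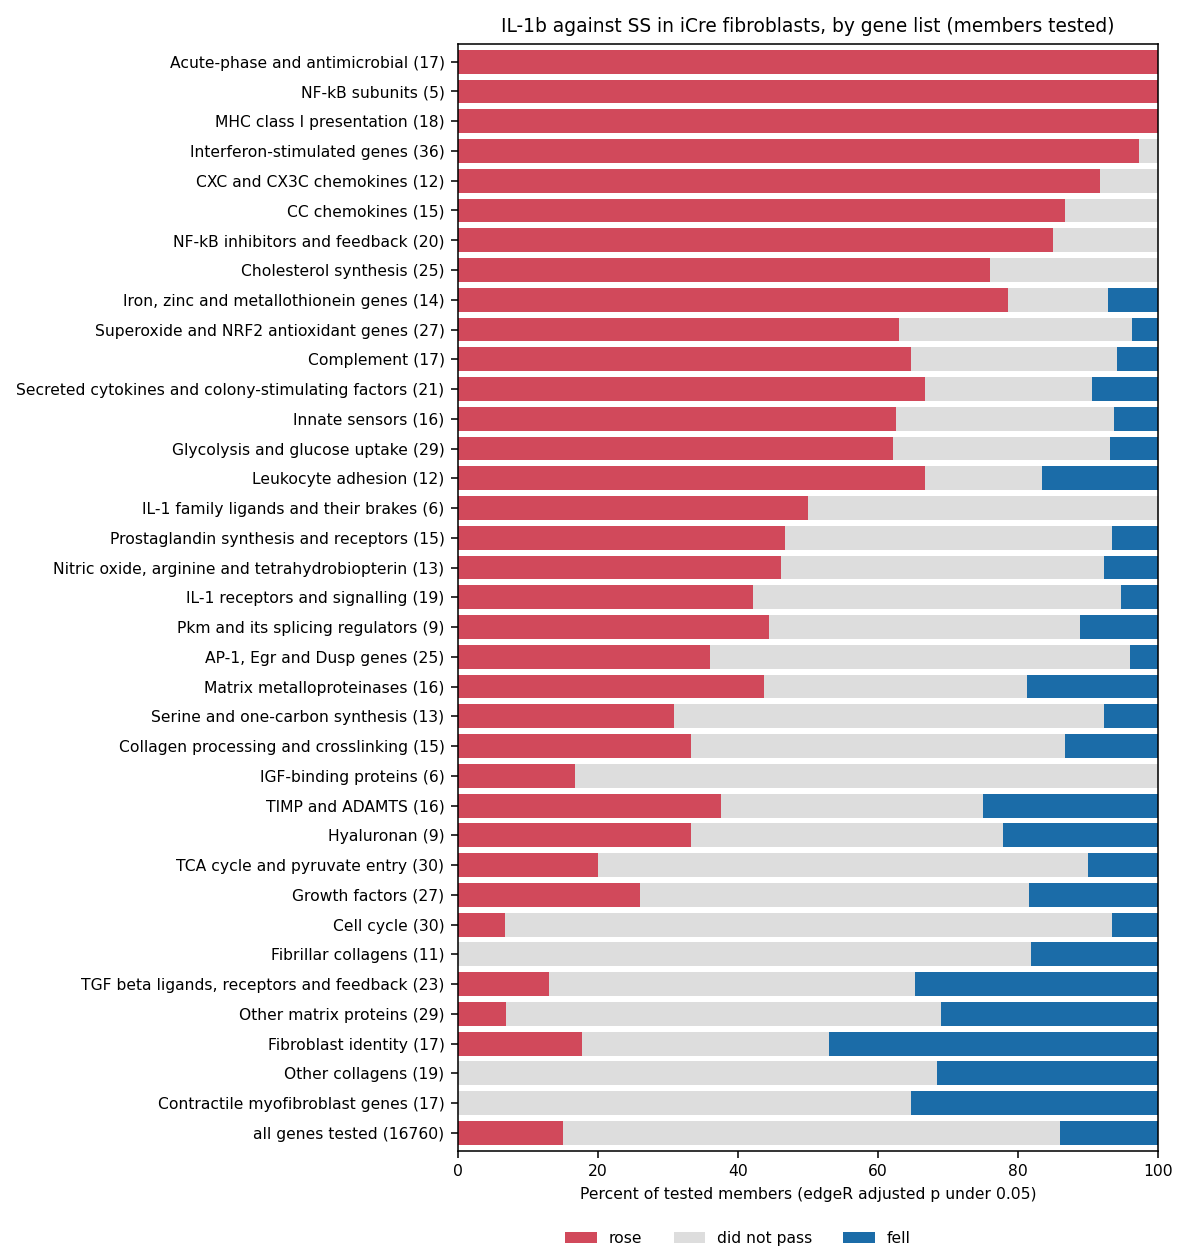
Percent of each gene list's tested members that rose (red, from the left), did not pass (grey) and fell (blue, from the right) with IL-1b against SS in iCre cells, at an adjusted p under 0.05 in edgeR's quasi-likelihood test with the replicate block. All genes tested stand in the bottom row, at 15.0% risen and 14.1% fallen, and every tested member of the NF-kB subunit and MHC class I lists rose.

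Pkm itself rose with IL-1b. Its gene (ENSMUSG00000032294, GRCm38 chr9:59656368-59679375, plus strand) was at 1636, 1310.4, 1689 and 933 CPM in IL-1b libraries and 550.0, 382, 777 and 425 CPM in SS libraries. The lowest IL-1b value lay above the highest SS value, and the difference passed the test (log2 fold change 1.40 ± 0.19, adjusted p = 5.50e-06). In cells given the LacZ control, Pkm was at 2290.3, 1953, 2407 and 1321 CPM in IL-1b libraries and 762, 646, 1141 and 595 CPM in SS libraries (log2 fold change 1.36 ± 0.19, adjusted p = 6.35e-06). The difference between the vectors in this response was 0.04 ± 0.27, adjusted p = 1 on the log2 scale. In every number the iCre library was below its LacZ counterpart, with IL-1b and in SS, a difference that was not tested. The counts are per gene, so they do not separate the transcripts for PKM1 and PKM2.

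Several of the 12 largest increases were in genes that were near 0 in the SS libraries. Nos2, the inducible nitric oxide synthase, was at 265, 232, 349 and 258 CPM in IL-1b libraries and 0.324, 0.522, 0.666 and 0.559 CPM in SS libraries (log2 fold change 9.03 ± 0.19, adjusted p = 3.36e-22). Saa3, an acute-phase serum amyloid A protein made outside the liver, was at 1120.4, 1820.4, 815 and 2165 CPM in IL-1b libraries and 1.94, 2.99, 2.96 and 5.64 CPM in SS libraries (log2 fold change 8.74 ± 0.38, adjusted p = 2.91e-14). Both groups of 4 were far apart, with all SS libraries at a few CPM or less. Lcn2, lipocalin 2, which binds bacterial iron carriers, was at 1577, 1669, 1287 and 975 CPM in IL-1b libraries and 1.90, 4.22, 2.40 and 8.38 CPM in SS libraries (log2 fold change 8.63 ± 0.48, adjusted p = 1.88e-12). Csf3, the granulocyte colony-stimulating factor, was at 8.19, 15.2, 4.77 and 25.8 CPM in IL-1b libraries and 0.0809, 0, 0.0370 and 0.0279 CPM in SS libraries (log2 fold change 8.39 ± 0.44, adjusted p = 2.02e-13). Trdc, annotated as the constant segment of the T cell receptor delta chain, was at 6.87, 4.98, 15.7 and 1.55 CPM in IL-1b libraries and 0.162, 0.0373, 0.111 and 0 CPM in SS libraries (log2 fold change 6.54 ± 0.65, adjusted p = 3.87e-08). The IL-1b and SS values of Trdc and of the genes before it did not overlap, which the rule that chose the 12 required. Leukocytes are the usual source of that transcript. Their summed markers, higher with IL-1b in every number, were at 80.4 to 1129 CPM in IL-1b libraries and 68.9 to 822 CPM in SS libraries. No marker of the list was at 0 in all 8 libraries. Lyz2 was the largest single part of these sums, and the markers Ptprc and Adgre1 were lower in CPM with IL-1b in every number. The part of leukocytes in the result was not tested.

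Small proline-rich genes, best known from the cornified envelope of skin, were among the largest risers. Sprr2e was at 6.21, 3.65, 12.04 and 4.48 CPM in IL-1b libraries and at 0 in all 4 SS libraries, which makes it at least 251-fold higher against a floor of 3 counts over the SS group. Sprr2b was at 35.9, 39.6, 31.3 and 13.6 CPM in IL-1b libraries and 0.0809, 0.0373, 0.0740 and 0.0559 CPM in SS libraries (log2 fold change 8.75 ± 0.34, adjusted p = 5.12e-16). The Sprr2 genes are near-identical copies, so how reads were divided between them is uncertain. Vnn3, a member of the vanin family of pantetheinases, was at 11.003, 10.1, 11.7 and 7.72 CPM in IL-1b libraries and 0.0809, 0.0746, 0.0370 and 0.0559 CPM in SS libraries (log2 fold change 7.26 ± 0.35, adjusted p = 5.87e-13). Slc36a2, a proton-coupled amino acid transporter, was at 2.25, 10.2, 1.22 and 21.04 CPM in IL-1b libraries and 0.0405, 0, 0.0370 and 0.224 CPM in SS libraries (log2 fold change 6.64 ± 0.58, adjusted p = 3.17e-09). Every IL-1b library of each was above every SS library, which the rule that chose the largest rises required.

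**Figure D2:**
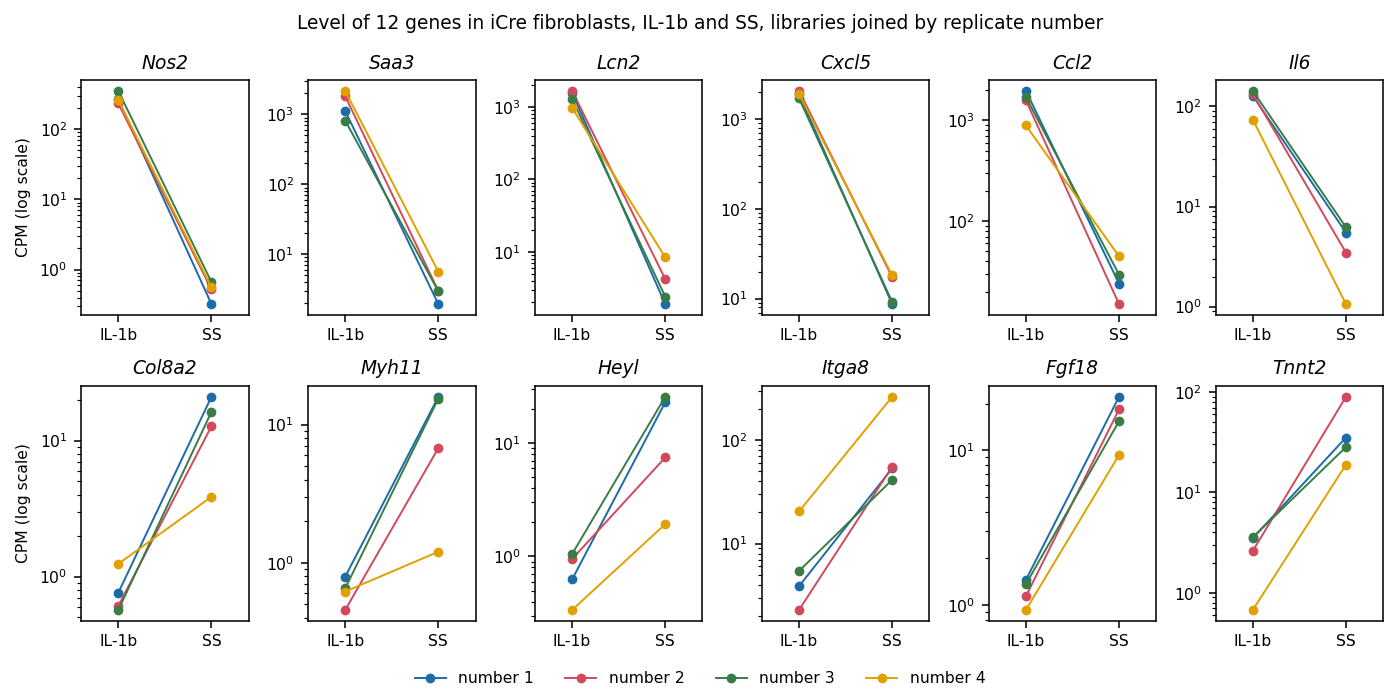
CPM on a log scale of 12 genes in the iCre IL-1b libraries (left) and iCre SS libraries (right) of each panel; each point is 1 library and lines join libraries of the same replicate number. In the top row every line runs down to SS and in the bottom row every line runs up. Except for Ccl2 and Il6, the genes were chosen among those with separate groups, which sets this direction.

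Binding motifs for factors that IL-1 signalling is known to engage were looked for in promoters. Shown are the promoters of 5 strong risers, taken in order of the size of the rise among those with a RefSeq entry. Nos2 and Csf3 were passed over because they had no entry. Each is the 250 bases before the start site in RefSeq (GRCm38.p6), read 5′ to 3′ on the strand of the gene, with matches on either strand in capitals to the NF-kB motif, to the AP-1-like TGANTCA or to the C/EBP-like TTNCNNAA. Sprr2e (chr3:92351893-92352142, plus strand) and Sprr2b (chr3:92316455-92316704, plus strand) hold TGANTCA at 193 and 195 bases before the start and TTNCNNAA at 95 bases. Saa3 (chr7:46715677-46715926, minus strand) holds 4 TTNCNNAA matches, at 216, 191, 129 and 99 bases. Lcn2 (chr2:32387740-32387989, minus strand) holds 1 TTNCNNAA match, and Cxcl1 (chr5:90890995-90891244, plus strand) holds 2 overlapping NF-kB matches at 71 and 70 bases.
Sprr2e: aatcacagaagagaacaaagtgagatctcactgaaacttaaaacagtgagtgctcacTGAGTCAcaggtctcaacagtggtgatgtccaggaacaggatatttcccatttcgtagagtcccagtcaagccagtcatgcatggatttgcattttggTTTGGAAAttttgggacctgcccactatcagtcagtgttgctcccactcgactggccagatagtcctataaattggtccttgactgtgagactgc
Sprr2b: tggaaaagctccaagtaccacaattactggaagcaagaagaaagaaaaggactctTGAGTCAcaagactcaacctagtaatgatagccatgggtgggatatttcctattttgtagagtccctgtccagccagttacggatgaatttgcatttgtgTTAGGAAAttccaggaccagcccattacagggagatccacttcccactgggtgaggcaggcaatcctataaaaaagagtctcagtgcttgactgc
Saa3: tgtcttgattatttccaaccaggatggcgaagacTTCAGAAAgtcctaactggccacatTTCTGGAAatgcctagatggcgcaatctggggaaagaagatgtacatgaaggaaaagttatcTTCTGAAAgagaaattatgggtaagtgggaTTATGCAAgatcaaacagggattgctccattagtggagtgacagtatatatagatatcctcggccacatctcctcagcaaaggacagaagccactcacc
Lcn2: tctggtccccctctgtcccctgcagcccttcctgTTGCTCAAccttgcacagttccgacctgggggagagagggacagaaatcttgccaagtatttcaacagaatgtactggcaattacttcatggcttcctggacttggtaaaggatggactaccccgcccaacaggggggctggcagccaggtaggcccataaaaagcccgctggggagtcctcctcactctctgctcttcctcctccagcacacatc
Cxcl1: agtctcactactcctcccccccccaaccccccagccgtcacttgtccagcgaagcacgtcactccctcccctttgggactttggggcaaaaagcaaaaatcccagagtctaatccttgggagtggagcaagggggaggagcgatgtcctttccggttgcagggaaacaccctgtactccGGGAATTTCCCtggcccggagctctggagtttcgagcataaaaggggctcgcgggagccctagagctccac

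Among genes that rose at least 4-fold, 232 of 340 matched a RefSeq entry, with 272 promoters. The NF-kB motif stood in 16.5% of these promoters, in 13.3% of the 180 promoters of genes that fell at least 4-fold and in 9.01% of 14691 promoters of all tested genes. TGANTCA stood in 14.0% of promoters of the risers, 6.11% of those of the fallers and 4.83% of those of all tested genes. TTNCNNAA stood in 43.8%, 31.1% and 28.8% of them in the same order. Promoters of the NF-kB inhibitor and feedback genes held the NF-kB motif in 39.1% of 23, and all 19 promoters of the acute-phase list held TTNCNNAA. A match is a description of the letters in these windows, not a measured site.

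The IL-1 receptor and its decoy both rose, while several adaptors and kinases did not pass. In the list of IL-1 receptors and signalling genes, 8 of 19 tested members rose and 1 fell (median log2 fold change 0.17), beside 15.0% rising and 14.1% falling of all genes. 4 rose and 1 fell without the replicate block. Il1r1, the signalling receptor, was at 272, 266, 207 and 207 CPM in IL-1b libraries and 129.6, 121, 118 and 103 CPM in SS libraries (log2 fold change 1.00 ± 0.10, adjusted p = 2.41e-08). Il1r2, a decoy receptor without a signalling domain, was at 0.628, 0.912, 1.05 and 0.845 CPM in IL-1b libraries and 0.121, 0.560, 0.148 and 0.168 CPM in SS libraries (log2 fold change 1.90 ± 0.39, adjusted p = 5.84e-04). Neither gene overlapped between groups. Irak3, an inhibitory IRAK, had a log2 fold change of 0.82, adjusted p = 0.00352, and Irak2, an active kinase of the complex, had one of 0.37, adjusted p = 0.00517. Traf6, the ubiquitin ligase downstream of them, was the 1 member that fell (-0.31, adjusted p = 0.006). Map3k7, which encodes TAK1, the kinase named in the protocol text, was at 124, 117, 125 and 88.2 CPM in IL-1b libraries and 121, 106, 126 and 94.7 CPM in SS libraries (log2 fold change 0.02 ± 0.07, adjusted p = 0.89). Its levels overlapped between the groups.

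All 5 NF-kB subunit genes rose. Relb, the subunit of the slower alternative pathway, was at 70.6, 84.7, 60.2 and 75.7 CPM in IL-1b libraries and 21.3, 23.7, 18.3 and 23.2 CPM in SS libraries (log2 fold change 1.75 ± 0.13, adjusted p = 1.04e-10). Nfkb2, whose product pairs with RelB, had a log2 fold change of 1.31, adjusted p = 1.64e-08, Rel one of 0.86, Nfkb1 one of 0.85 and Rela, the main activating subunit of the canonical pathway, one of 0.34. Each of these calls held without the block and without the number 4 libraries. Relb levels in the IL-1b libraries all lay above those in the SS libraries.

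Inhibitors and feedback genes of NF-kB rose too. In that list 17 of 20 tested members rose and 0 fell (median log2 fold change 1.67). Zc3h12a, the RNase Regnase-1 that degrades cytokine transcripts, was at 212, 193, 179.6 and 118 CPM in IL-1b libraries and 10.4, 9.22, 9.73 and 7.15 CPM in SS libraries (log2 fold change 4.25 ± 0.13, adjusted p = 1.17e-18). Nfkbia, the inhibitor IkBa, was at 194, 196, 168 and 205 CPM in IL-1b libraries and 28.1, 28.3, 25.3 and 31.04 CPM in SS libraries (log2 fold change 2.76 ± 0.15, adjusted p = 3.62e-13). The groups of both genes were fully separate. Tnfaip3, the ubiquitin-editing enzyme A20, had a log2 fold change of 2.87, adjusted p = 8.72e-06. Bcl3 and Nfkbiz, nuclear cofactors of NF-kB, had changes of 3.34 and 2.89, and Birc3, a ubiquitin ligase of the TNF receptor complex, one of 2.38.

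Of the IL-1 family itself, 3 of 6 tested members rose and 0 fell (median log2 fold change 1.43), and Il1a and Il1b were too low to be tested. Il33, an alarmin of the family, was at 56.3, 85.9, 23.2 and 109 CPM in IL-1b libraries and 3.48, 4.85, 4.14 and 12.9 CPM in SS libraries (log2 fold change 3.47 ± 0.42, adjusted p = 1.24e-06). Its groups did not overlap. Il18bp, which neutralizes IL-18, and Casp1, a protease that matures some of the family's ligands, also rose (2.45 and 1.76 on the log2 scale).

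Most chemokine genes rose. Among CXC and CX3C chemokines 11 of 12 tested members rose and 0 fell (median log2 fold change 3.18), and without the filter 11 of 16 members rose (median log2 fold change 2.42). Cxcl1, a neutrophil attractant, was at 1379, 1159, 1191 and 299 CPM in IL-1b libraries and 7.93, 6.87, 5.73 and 3.52 CPM in SS libraries (log2 fold change 7.30 ± 0.31, adjusted p = 1.54e-14). Cxcl5, another ligand of CXCR2, was at 1878, 2046, 1696 and 1898 CPM in IL-1b libraries and 8.70, 17.4, 9.17 and 18.1 CPM in SS libraries (log2 fold change 7.21 ± 0.33, adjusted p = 4.78e-14). The SS levels of both lay far below every IL-1b value, and both were among the largest rises, chosen for separate groups. Cxcl3 was at 1.52, 0.456, 1.08 and 0.366 CPM in IL-1b libraries and at 0 in all 4 SS libraries, at least 32.6-fold higher against the same floor. Cxcl9, an interferon-inducible attractant of T cells, had a log2 fold change of 6.08, adjusted p = 3.84e-06, and Cxcl10, of the same kind, had one of 3.53, adjusted p = 8.85e-06. Cxcl16, a membrane-bound ligand of CXCR6, had one of 2.83.

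Of the CC chemokines 13 of 15 tested members rose and 0 fell (median log2 fold change 2.42), and without the filter 12 of 18 members rose (median log2 fold change 2.30). 8 rose and 0 fell without the replicate block. Ccl2, the main attractant of monocytes, was at 1960.4, 1579, 1705 and 891 CPM in IL-1b libraries and 23.99, 15.04, 29.4 and 44.7 CPM in SS libraries (log2 fold change 5.63 ± 0.39, adjusted p = 1.53e-10). Ccl7, a related ligand of CCR2, was at 938, 879, 842 and 476 CPM in IL-1b libraries and 17.5, 14.4, 23.4 and 22.2 CPM in SS libraries (log2 fold change 5.32 ± 0.26, adjusted p = 9.98e-14). In each, the groups were separate. Ccl5 and Ccl20, which attract lymphocytes, had log2 fold changes of 5.77 and 5.24. Ccl19, a ligand of the lymph node receptor CCR7, was at 1.62, 2.43, 0.227 and 1.07 CPM in IL-1b libraries and 0, 0.0373, 0.0370 and 0 CPM in SS libraries (adjusted p = 1.87e-06). Ccl8 and Ccl12, further monocyte attractants, had log2 fold changes of 4.36 and 3.37.

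Among cytokines and colony-stimulating factors 14 of 21 tested members rose and 2 fell (median log2 fold change 1.15), and without the filter 13 of 24 members rose (median log2 fold change 1.07). 8 rose and 2 fell without the replicate block. Il6, a pleiotropic inducer of the acute phase, was at 128, 133, 143 and 73.9 CPM in IL-1b libraries and 5.50, 3.47, 6.21 and 1.06 CPM in SS libraries (log2 fold change 4.97 ± 0.46, adjusted p = 1.70e-08). Csf2, the granulocyte-macrophage factor, was at 0.760, 0.912, 0.795 and 0.732 CPM in IL-1b libraries and 0, 0, 0.0740 and 0 CPM in SS libraries (adjusted p = 6.00e-06, with 2 counts over the SS group). Il6 was present in every SS library and was higher in every IL-1b library. Tnfsf11, the osteoclast factor RANKL, Lif, an IL-6 family cytokine, and Tnfsf13b, the B cell factor BAFF, had log2 fold changes of 4.34, 3.01 and 2.38. Il17d and Il15 fell, with log2 fold changes of -1.77 (adjusted p = 3.74e-04) and -1.18 (adjusted p = 2.48e-04).

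Acute-phase and antimicrobial genes rose by large amounts. In this list 17 of 17 tested members rose and 0 fell (median log2 fold change 4.54), and without the filter 17 of 20 members rose (median log2 fold change 4.23). Saa1 is one of the members that were near 0 in SS and entered the test through groups where they are high. Hp, haptoglobin, which binds free haemoglobin, was at 177, 226, 149 and 189.7 CPM in IL-1b libraries and 0.405, 1.94, 1.81 and 10.98 CPM in SS libraries (log2 fold change 6.63 ± 0.65, adjusted p = 4.93e-08). The number 4 SS library was the highest of its group for Hp and still far below the IL-1b libraries. Saa1 was at 1.06, 0.684, 1.05 and 0.535 CPM in IL-1b libraries and at 0 in all 4 SS libraries, at least 31.7-fold higher. Saa1 and Saa2 are close copies, as are the Serpina3 genes, so their single values are uncertain. Ptx3, a soluble pattern recognition protein, had a log2 fold change of 3.68, adjusted p = 8.70e-07, and Cp, the copper ferroxidase ceruloplasmin, had one of 2.86, adjusted p = 1.08e-10.

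In the complement list 11 of 17 tested members rose and 1 fell (median log2 fold change 0.62). The member that fell was Masp1 (-0.81, adjusted p = 0.00482, and 0.208 without the block), a protease of the lectin pathway. 6 rose and 0 fell without the replicate block. 2 fell without IL-1b library 4 or with DESeq2, and 3 fell without the number 4 libraries or SS library 4 or with scaling by total counts. C3, on which all pathways converge, was at 4459, 7592, 2811 and 8329 CPM in IL-1b libraries and 103, 263, 91.4 and 416 CPM in SS libraries (log2 fold change 4.88 ± 0.35, adjusted p = 2.36e-10). Cfb, the protease precursor of the alternative pathway, was at 29.3, 51.3, 12.4 and 77.7 CPM in IL-1b libraries and 0.243, 1.23, 0.629 and 2.18 CPM in SS libraries (log2 fold change 5.32 ± 0.35, adjusted p = 3.59e-11). Neither gene's groups overlapped. C1ra, C2 and C4b, of the classical pathway, had log2 fold changes of 1.77, 1.65 and 1.38.

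Most innate sensors rose. Among them 10 of 16 tested members rose and 1 fell (median log2 fold change 1.22), and the fallen one was Tlr6 (-0.80, adjusted p = 0.0144, and 0.0505 to 0.0801 without the block, IL-1b library 1 or 2 or SS library 3), a partner of TLR2. Tlr2, a receptor for bacterial lipoproteins, was at 143, 155, 133 and 108 CPM in IL-1b libraries and 9.18, 9.70, 11.3 and 6.99 CPM in SS libraries (log2 fold change 3.87 ± 0.21, adjusted p = 8.64e-13). Its lowest IL-1b value exceeded its highest SS value. Zbp1, a sensor of Z-form nucleic acid, Casp4, the cytosolic sensor of lipopolysaccharide, and Nod2, a sensor of peptidoglycan fragments, had log2 fold changes of 3.86, 2.82 and 2.40.

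Around nitric oxide, the synthase Nos2 rose together with genes that supply its cofactor and substrate. In the list 6 of 13 tested members rose and 1 fell (median log2 fold change 0.29). The member that fell was Ddah2 (-0.52, adjusted p = 0.011, and 0.0816 without the block), which clears an inhibitor of nitric oxide synthases. Gch1, the first enzyme of tetrahydrobiopterin synthesis, was at 22.2, 18.8, 19.3 and 18.4 CPM in IL-1b libraries and 0.890, 1.60, 1.55 and 4.41 CPM in SS libraries (log2 fold change 3.30 ± 0.37, adjusted p = 3.05e-07). Arg2, the mitochondrial arginase that competes for the same substrate, was at 0.397, 0.114, 0.170 and 2.87 CPM in IL-1b libraries and 0, 0, 0 and 0.112 CPM in SS libraries (log2 fold change 4.58 ± 0.96, adjusted p = 7.78e-04). Both were separate between groups, but Arg2 only narrowly and at few counts. Arg2 had 12, 3, 6 and 102 counts in IL-1b libraries and 0, 0, 0 and 4 in SS libraries. Slc7a2, an arginine transporter, had a log2 fold change of 2.16, adjusted p = 3.63e-08, and Odc1, the first enzyme of polyamine synthesis, had one of 1.36, adjusted p = 5.42e-05.

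For prostaglandins 7 of 15 tested members rose and 1 fell (median log2 fold change 0.52). The fallen member was Ptger3 (-1.56, adjusted p = 0.0332, and 0.0588 to 0.177 without the filter, the block, IL-1b library 2, 3 or 4 or SS library 1 or 2), a receptor of prostaglandin E. 4 rose and 0 fell without the replicate block. 2 fell without SS library 4 or with the compared groups alone, scaling by total counts or DESeq2. Ptgs2, the inducible cyclooxygenase, was at 43.2, 52.5, 50.8 and 119.9 CPM in IL-1b libraries and 8.58, 5.22, 9.43 and 38.1 CPM in SS libraries (log2 fold change 2.34 ± 0.41, adjusted p = 1.25e-04). The IL-1b libraries of Ptgs2 all exceeded its SS libraries. Ptges2, a prostaglandin E synthase, and Ptgir, the prostacyclin receptor, had log2 fold changes of 1.69 and 1.49.

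Adhesion molecules that endothelium uses to catch leukocytes rose in these fibroblast cultures. Of the list, 8 of 12 tested members rose and 2 fell (median log2 fold change 1.79). Vcam1, a ligand of leukocyte integrins, was at 1872, 2132, 1384 and 1686 CPM in IL-1b libraries and 541, 452, 497 and 559.9 CPM in SS libraries (log2 fold change 1.77 ± 0.22, adjusted p = 1.48e-06). Selp, P-selectin, was at 458, 398, 279.9 and 68.5 CPM in IL-1b libraries and 6.51, 5.60, 7.99 and 1.98 CPM in SS libraries (log2 fold change 5.70 ± 0.49, adjusted p = 5.22e-09). Groups did not overlap for either. Summed endothelial markers stood at 14.6 to 48.9 CPM in IL-1b libraries and 29.97 to 89.5 CPM in SS libraries, and none of 7 tested members rose. Those that fell were Tek (-0.81, adjusted p = 0.0168, and 0.0565 to 0.0818 without the number 4 libraries, the block, IL-1b library 2 or 4 or SS library 2) and Kdr (-2.68, adjusted p = 0.00146, and 0.193 without the block), both endothelial receptor kinases. In number 1 Kdr was slightly higher in CPM with IL-1b, at few counts. The part of endothelial cells in the adhesion result was not tested. Icam1, another such ligand, had a log2 fold change of 2.17, adjusted p = 1.35e-11, and Cd44, the hyaluronan receptor, had one of 2.35, adjusted p = 1.68e-07. Alcam and Mcam, adhesion molecules of the immunoglobulin family, fell (-1.31 and -1.97).

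Interferon-stimulated genes rose almost as a whole. In the list 35 of 36 tested members rose and 0 fell (median log2 fold change 1.56), and Ifit2 was the member that did not pass (0.25, adjusted p = 0.37). Gbp5, a guanylate-binding protein, was at 63.1, 97.7, 56.8 and 64.5 CPM in IL-1b libraries and 4.61, 6.94, 5.58 and 4.39 CPM in SS libraries (log2 fold change 3.69 ± 0.34, adjusted p = 1.50e-08). Irf7, an amplifier of interferon production, was at 354, 408, 268 and 141 CPM in IL-1b libraries and 41.2, 66.05, 55.3 and 56.7 CPM in SS libraries (log2 fold change 2.45 ± 0.34, adjusted p = 7.50e-06). For both genes every IL-1b library lay above every SS library. Oas3, which makes the messenger that activates RNase L, had a log2 fold change of 3.39, adjusted p = 4.90e-05, and Isg15, a ubiquitin-like modifier, had one of 1.74.

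The machinery that presents antigen on MHC class I rose in full. Here 18 of 18 tested members rose and 0 fell (median log2 fold change 1.53), and all 18 rose also without the block and without number 4. H2-K1, a classical heavy chain, was at 914, 1046, 641 and 362 CPM in IL-1b libraries and 103, 166, 143 and 87.4 CPM in SS libraries (log2 fold change 2.53 ± 0.20, adjusted p = 5.98e-10). Psmb8, an immunoproteasome subunit, was at 66.2, 71.1, 55.9 and 45.9 CPM in IL-1b libraries and 6.84, 14.96, 12.5 and 11.3 CPM in SS libraries (log2 fold change 2.44 ± 0.23, adjusted p = 1.57e-08). Separate ranges were seen for both. Nlrc5, the activator of class I genes, Tap1, a peptide transporter subunit, and B2m, the light chain, had log2 fold changes of 2.05, 0.71 and 0.93. The H2-Q genes are close copies, so their single values are left out.

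Glycolytic genes rose at uptake, at the entry steps and at lactate export. In this list 18 of 29 tested members rose and 2 fell (median log2 fold change 0.79). Hk2, the inducible hexokinase, was at 90.4, 104, 88.9 and 77.1 CPM in IL-1b libraries and 20.3, 13.5, 29.6 and 24.98 CPM in SS libraries (log2 fold change 2.03 ± 0.30, adjusted p = 1.51e-05). Ldha, which turns pyruvate into lactate, was at 1322, 1104, 1097 and 649.9 CPM in IL-1b libraries and 451, 322, 561 and 304 CPM in SS libraries (log2 fold change 1.35 ± 0.25, adjusted p = 2.35e-04). Values of the groups did not overlap for either. Slc2a1 and Slc2a6, glucose transporters, had log2 fold changes of 1.26 and 2.90. Slc16a1 and Slc16a3, which carry lactate, had 1.96 and 1.63, and Pfkfb3, which makes an activator of phosphofructokinase, had 1.30. The 2 members that fell were Slc2a4 (-1.65, adjusted p = 0.00476, and 0.0788 without the block), the insulin-regulated transporter, and Pgam2 (-2.29, adjusted p = 0.0129, and 0.0652 without SS library 2), the muscle phosphoglycerate mutase. 16 rose and 1 fell without the replicate block. 1 fell without SS library 2, and 5 fell without the number 4 libraries.

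Among Pkm and the factors known to regulate its splicing, 4 of 9 tested members rose and 1 fell (median log2 fold change 0.23). Myc, which drives several of these factors, had a log2 fold change of 0.87, adjusted p = 0.00932, and Hnrnpa2b1, an RNA-binding repressor of an exon, had one of 0.30, adjusted p = 0.00587. The splicing factor Srsf3 (0.26, adjusted p = 0.024, and 0.0628 to 0.153 without the number 4 libraries, the block, IL-1b library 1 or 4 or SS library 2 or 4 or with scaling by total counts) rose by less. Mbnl1, a muscleblind splicing factor, fell (-0.75, adjusted p = 0.00179).

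Most TCA cycle genes did not pass, as was so of all genes tested (11892 of 16760). In the list 6 of 30 tested members rose and 3 fell (median log2 fold change 0.08), beside 15.0% rising and 14.1% falling of all genes. 4 rose and 1 fell without the replicate block. 1 fell without IL-1b library 1 or 2 or SS library 1 or 2. The largest change was in Acod1, which makes itaconate from a cycle intermediate, at 2.61, 3.65, 3.58 and 6.17 CPM in IL-1b libraries and 0.0809, 0.112, 0.148 and 0.168 CPM in SS libraries (log2 fold change 4.92 ± 0.51, adjusted p = 6.55e-08). Its SS libraries were all lower than its IL-1b libraries. Pdk1, a kinase that restrains pyruvate dehydrogenase, had a log2 fold change of 1.07, adjusted p = 0.00483. Its relatives Pdk2 (-0.47, adjusted p = 0.0251, and 0.0514 to 0.12 without the block, IL-1b library 1 or 2 or SS library 1 or 2) and Pdk4 (-0.86, adjusted p = 0.0218, and 0.0573 to 0.0998 without the filter, IL-1b library 1, 2 or 3 or SS library 1 or 2 or with the compared groups alone) fell, as did Idh2 (-0.88, adjusted p = 4.67e-04, and 0.179 without the block), a mitochondrial isocitrate dehydrogenase. In number 4 Pdk4 was higher in CPM with IL-1b. In serine and one-carbon synthesis 4 of 13 tested members rose and 1 fell (median log2 fold change 0.25). 2 rose and 0 fell without the replicate block. 2 fell with the compared groups alone. Mthfd1l, a mitochondrial folate enzyme, had a change of 1.07, adjusted p = 1.58e-04. The other risers were Aldh1l1 (1.15, adjusted p = 4.17e-04, and 0.119 without the block), Shmt2 (0.71, adjusted p = 0.00469, and 0.17 without the block) and Mthfd2l (0.57, adjusted p = 0.00444), all of folate metabolism.

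Most antioxidant genes rose, and the mitochondrial superoxide dismutase Sod2 changed most. In the list of superoxide and NRF2 genes 17 of 27 tested members rose and 1 fell (median log2 fold change 0.72). Sod2 was at 521, 651, 419 and 630.5 CPM in IL-1b libraries and 48.6, 38.6, 44.5 and 36.3 CPM in SS libraries (log2 fold change 3.72 ± 0.15, adjusted p = 7.77e-16). The lowest IL-1b value of Sod2 exceeded the highest SS value several-fold. Slc7a11, the cystine importer, had a log2 fold change of 2.42, adjusted p = 8.00e-06, and Srxn1, Gclm and Nqo1, targets of NRF2, had 1.37, 1.14 and 1.03. The 1 member that fell was Nox4 (-1.22, adjusted p = 0.00441, and 0.0624 with the compared groups alone), an oxidase that makes hydrogen peroxide. In number 4 Nox4 was higher in CPM with IL-1b.

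Genes for iron, zinc and metallothioneins rose with 1 exception among those that passed. Of the list, 11 of 14 tested members rose and 1 fell (median log2 fold change 1.44). Steap4, a metalloreductase, was at 872, 902, 649 and 958 CPM in IL-1b libraries and 13.1, 9.48, 13.2 and 21.8 CPM in SS libraries (log2 fold change 5.89 ± 0.31, adjusted p = 6.96e-13). Slc39a14, an importer of zinc and iron, was at 511, 597, 419 and 263 CPM in IL-1b libraries and 39.7, 38.02, 47.3 and 37.02 CPM in SS libraries (log2 fold change 3.43 ± 0.22, adjusted p = 2.43e-11). Slc40a1, the iron exporter ferroportin, was the 1 member that fell, at 5.48, 3.42, 11.4 and 6.50 CPM in IL-1b libraries and 18.1, 20.5, 22.8 and 28.1 CPM in SS libraries (log2 fold change -1.77 ± 0.44, adjusted p = 0.00376). Its groups were separate in the opposite sense to those of the importers. Fth1, the ferritin heavy chain, had a log2 fold change of 1.68, adjusted p = 1.72e-09, and Mt2, a metallothionein, had one of 3.94, adjusted p = 2.07e-08.

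Cholesterol genes rose by modest amounts. Of these, 19 of 25 tested members rose and 0 fell (median log2 fold change 0.83). 3 rose and 0 fell without the replicate block. 12 rose without SS library 2. Ch25h, which makes an oxysterol, had the largest change, at 121, 93.3, 122 and 94.1 CPM in IL-1b libraries and 12.6, 8.43, 18.6 and 9.08 CPM in SS libraries (log2 fold change 3.20 ± 0.34, adjusted p = 1.51e-07). Its groups did not overlap.

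Matrix proteases split by member. Among the matrix metalloproteinases 7 of 16 tested members rose and 3 fell (median log2 fold change 0.39). Mmp3, stromelysin 1, was at 4116, 5107, 2981 and 3261 CPM in IL-1b libraries and 344, 427, 417 and 691 CPM in SS libraries (log2 fold change 3.10 ± 0.24, adjusted p = 7.37e-10). Mmp13, a collagenase, was at 4.86, 3.19, 10.2 and 10.98 CPM in IL-1b libraries and 1.42, 0.784, 1.44 and 2.10 CPM in SS libraries (log2 fold change 2.26 ± 0.29, adjusted p = 1.88e-06). The SS levels of both were below all their IL-1b levels. Mmp8, the neutrophil collagenase, Mmp9, a gelatinase, and Mmp10 had log2 fold changes of 3.51, 2.50 and 2.17. Mmp15, a membrane-bound member, fell (-1.15, adjusted p = 3.69e-06). The others that fell were Mmp2 (-0.47, adjusted p = 0.00444, and 0.452 without the block), a gelatinase, and Mmp17 (-1.27, adjusted p = 0.0388, and 0.0734 to 0.129 without the filter, the block, IL-1b library 1, 2 or 4 or SS library 1, 2 or 3), also membrane-bound. 6 rose and 1 fell without the replicate block. 5 fell without the number 4 libraries, and 6 fell with the compared groups alone.

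The inhibitors of these proteases moved in both directions. In the TIMP and ADAMTS list 6 of 16 tested members rose and 4 fell (median log2 fold change -0.21). 3 rose and 2 fell without the replicate block. 3 rose without SS library 2. 2 fell without the filter, IL-1b library 4 or SS library 1 or 3. Timp1 was at 1936, 1593, 2019.7 and 1215 CPM in IL-1b libraries and 418, 252, 625 and 211 CPM in SS libraries (log2 fold change 2.27 ± 0.26, adjusted p = 3.59e-07). Timp3, which is bound to the matrix, was at 383, 394, 360.4 and 177 CPM in IL-1b libraries and 2688, 2494, 2619.7 and 619 CPM in SS libraries (log2 fold change -2.58 ± 0.29, adjusted p = 3.56e-07). Timp1 was higher in every IL-1b library, and Timp3 was lower in every one. Adamts7 rose (1.86, adjusted p = 2.06e-07) and Adamts10 fell (-1.07, adjusted p = 6.18e-04), both of them secreted metalloproteases. The other fallers were Adamts1 (-1.01, adjusted p = 0.0321, and 0.0575 to 0.253 without the filter, the block, IL-1b library 1, 3 or 4 or SS library 1, 2 or 3) and Adamts12 (-1.14, adjusted p = 0.023, and 0.0537 to 0.0888 without the filter, the block, IL-1b library 4 or SS library 1 or 3), of the same family.

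The main fibrillar collagens did not pass the test. Of the fibrillar list 0 of 11 tested members rose and 2 fell (median log2 fold change 0.0052), the 2 being Col11a1 (-2.06, adjusted p = 6.49e-04) and Col27a1 (-1.83, adjusted p = 4.42e-04). Col1a1, the main chain of type I collagen, was at 12044, 12037, 10663 and 4756 CPM in IL-1b libraries and 10031, 8966, 9778 and 4594 CPM in SS libraries (log2 fold change 0.23 ± 0.27, adjusted p = 0.565). Col3a1, of type III collagen, was at 28543, 31269, 20617 and 11459 CPM in IL-1b libraries and 23548, 23486, 22475 and 8695 CPM in SS libraries (log2 fold change 0.22 ± 0.23, adjusted p = 0.513). In neither gene were the groups separate. With these errors a change of the observed size was not detectable.

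Other collagens fell where they passed. In that list 0 of 19 tested members rose and 6 fell (median log2 fold change -0.65). 0 rose and 2 fell without the replicate block. 10 fell without SS library 4 or with the compared groups alone or scaling by total counts. Col8a2, a chain of type VIII collagen, was at 0.760, 0.608, 0.568 and 1.24 CPM in IL-1b libraries and 20.96, 12.7, 16.2 and 3.86 CPM in SS libraries (log2 fold change -3.97 ± 0.77, adjusted p = 4.12e-04). Col6a3, of the beaded microfibrils, was at 193, 154, 133 and 225 CPM in IL-1b libraries and 402, 281, 429 and 425 CPM in SS libraries (log2 fold change -1.11 ± 0.30, adjusted p = 0.00709). Both were lower in every IL-1b library than in any SS library, which for Col8a2 the rule that chose the largest falls required. For enzymes that process and crosslink collagen 5 of 15 tested members rose and 2 fell (median log2 fold change 0.37). 3 rose and 0 fell without the replicate block. 3 rose without IL-1b library 3 or with scaling by total counts. 0 fell without IL-1b library 4 or SS library 1 or 2, and 1 fell without IL-1b library 1, 2 or 3 or SS library 3. P4ha2, a prolyl hydroxylase subunit, had the largest rise (1.74, adjusted p = 0.00356). The lysyl hydroxylase genes Plod1 (0.64, adjusted p = 0.00798, and 0.11 with the compared groups alone) and Plod3 (0.39, adjusted p = 0.0484, and 0.0503 to 0.428 without the filter, the block, IL-1b library 1, 2 or 3 or SS library 1, 2 or 4 or with RLE factors or scaling by total counts) rose as well, with the lysyl oxidase Loxl3 (0.59, adjusted p = 0.002, and 0.109 without the block) and the procollagen protease Bmp1 (0.37, adjusted p = 0.0148, and 0.0642 to 0.0671 without IL-1b library 3 or with scaling by total counts). In number 4 Plod1 was lower in CPM with IL-1b. Those that fell were Plod2 (-0.56, adjusted p = 0.0224, and 0.0519 to 0.1 without the block, IL-1b library 1, 3 or 4 or SS library 1, 2 or 3), another lysyl hydroxylase, and Pcolce2 (-0.77, adjusted p = 0.0182, and 0.054 to 0.482 without the block, IL-1b library 2 or 4 or SS library 1 or 2), an enhancer of procollagen cleavage.

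Among other matrix proteins 2 of 29 tested members rose and 9 fell (median log2 fold change -0.49). 1 rose and 1 fell without the replicate block. 1 rose without the filter, IL-1b library 1 or 2 or SS library 1 or 3, and 4 rose with the compared groups alone. 5 fell without the filter, IL-1b library 4 or SS library 1 or 2, and 15 fell with the compared groups alone. Dcn, decorin, a proteoglycan that binds collagen and TGFb, was at 3795, 3338, 2952 and 1319 CPM in IL-1b libraries and 826, 1301, 664 and 583 CPM in SS libraries (log2 fold change 1.75 ± 0.25, adjusted p = 1.23e-05). Aspn, asporin, of the same proteoglycan family, was at 23.3, 23.02, 21.3 and 67.8 CPM in IL-1b libraries and 118, 113, 101 and 255 CPM in SS libraries (log2 fold change -2.19 ± 0.29, adjusted p = 5.18e-06). Dcn was higher and Aspn lower in every IL-1b library. The other riser was Vcan (1.24, adjusted p = 0.0271, and 0.0582 to 0.213 without the filter, the block, IL-1b library 1 or 2 or SS library 1, 2 or 3), a proteoglycan that binds hyaluronan. For hyaluronan 3 of 9 tested members rose and 2 fell (median log2 fold change 0.04), the fallers being Cemip and Hyal1 (-0.56, adjusted p = 0.0077, and 0.0611 without SS library 2), a hyaluronidase. Has1 and Has2, its synthases, had log2 fold changes of 3.34 and 2.50, and Tnfaip6, which modifies it, had 1.63. Cemip, which takes part in its breakdown, had a change of -1.73, adjusted p = 0.00109.

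Contractile genes fell where they passed. In this list 0 of 17 tested members rose and 6 fell (median log2 fold change -0.65). 0 rose and 3 fell without the replicate block. 10 fell without the number 4 libraries, and 12 fell with the compared groups alone. Myh11, the smooth muscle myosin heavy chain, was at 0.793, 0.456, 0.653 and 0.620 CPM in IL-1b libraries and 15.9, 6.75, 15.4 and 1.20 CPM in SS libraries (log2 fold change -4.05 ± 1.08, adjusted p = 0.00648). Myl9, a regulatory myosin light chain, was at 15.8, 16.8, 20.7 and 44.2 CPM in IL-1b libraries and 69.95, 80.2, 63.2 and 71.6 CPM in SS libraries (log2 fold change -1.63 ± 0.44, adjusted p = 0.00725). Acta2, smooth muscle actin, which marks myofibroblasts, was at 146, 116, 187 and 171 CPM in IL-1b libraries and 416, 319, 480.4 and 260.1 CPM in SS libraries and did not pass (log2 fold change -1.26 ± 0.53, adjusted p = 0.0796). Its values were nonetheless lower in every IL-1b library, and the adjusted p was 0.00133 without the number 4 libraries and 0.00285 with the compared groups alone. Vcl, vinculin of the focal adhesion, fell (-1.47, adjusted p = 2.86e-04). Summed mural cell markers, which include no gene of the contractile list, were at 174 to 657 CPM in IL-1b libraries and 156 to 663 CPM in SS libraries. Of 6 tested members 0 rose and 2 fell, Cspg4 and Notch3 (-1.33 and -1.73), while the median log2 fold change of the list was 0.33. The part of mural cells in the contractile result was not tested.

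In the TGFb pathway 3 of 23 tested members rose and 8 fell (median log2 fold change -0.18). 2 rose and 3 fell without the replicate block. The ligands differed, as Tgfb1 rose (0.63, adjusted p = 0.00423) and Tgfb3 fell (-1.12, adjusted p = 2.40e-07). The related repressors of Smad signalling differed too, as Skil rose (0.58, adjusted p = 4.17e-04) and Ski fell (-0.40, adjusted p = 0.00239). The remaining riser was Ltbp2 (1.03, adjusted p = 0.0205, and 0.0541 to 0.346 without the filter, the block, IL-1b library 2 or 4 or SS library 1 or 3), which binds to matrix microfibrils.

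The largest decreases were in genes of various roles, among them muscle and Notch signalling. Itga8, an integrin alpha subunit, was at 3.87, 2.28, 5.43 and 20.4 CPM in IL-1b libraries and 53.3, 55.3, 41.3 and 263 CPM in SS libraries (log2 fold change -3.72 ± 0.70, adjusted p = 2.79e-04). Heyl, a repressor induced by Notch, was at 0.628, 0.950, 1.05 and 0.338 CPM in IL-1b libraries and 22.9, 7.46, 25.6 and 1.93 CPM in SS libraries (log2 fold change -4.12 ± 0.71, adjusted p = 1.20e-04). Both were lower in all 4 IL-1b libraries than in any SS library, which the rule that chose the 12 largest falls required. Tnnt2, cardiac troponin T, was at 3.50, 2.62, 3.58 and 0.676 CPM in IL-1b libraries and 35.2, 89.5, 28.3 and 18.9 CPM in SS libraries (log2 fold change -3.94 ± 0.59, adjusted p = 2.07e-05). Summed cardiomyocyte markers, most of which is Tnnt2, were at 4.37 to 5.72 CPM in IL-1b libraries and 22.5 to 92.1 CPM in SS libraries, and their part in the result was not tested. Daam2, a formin-related protein, was at 0.430, 0.456, 0.625 and 1.18 CPM in IL-1b libraries and 15.9, 10.3, 11.7 and 5.45 CPM in SS libraries (log2 fold change -3.97 ± 0.62, adjusted p = 3.54e-05). Fgf18, a growth factor, was at 1.45, 1.14, 1.36 and 0.929 CPM in IL-1b libraries and 22.2, 18.4, 15.4 and 9.33 CPM in SS libraries (log2 fold change -3.74 ± 0.53, adjusted p = 1.01e-05). Myh1, a myosin of fast skeletal muscle, was at 0.397, 0.380, 0.426 and 0.0282 CPM in IL-1b libraries and 15.98, 13.3, 19.2 and 1.15 CPM in SS libraries (log2 fold change -5.17 ± 0.73, adjusted p = 9.46e-06). Every IL-1b value of these genes lay below every SS value, again as that rule required. Wscd2, Pkhd1l1 and Nkain3 were also among the 12 largest falls, with log2 fold changes of -3.92, adjusted p = 1.16e-05, -3.69, adjusted p = 5.86e-08 and -3.45, adjusted p = 6.72e-07.

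Growth factors moved both ways. In the list 7 of 27 tested members rose and 5 fell (median log2 fold change 0.10). 4 rose and 2 fell without the replicate block. 2 fell without the filter, IL-1b library 1 or 2 or SS library 1, 2 or 3, and 3 fell without IL-1b library 4. Pgf, a ligand of the VEGF receptor FLT1, was at 53.8, 42.2, 32.6 and 40.3 CPM in IL-1b libraries and 1.42, 2.72, 1.33 and 2.91 CPM in SS libraries (log2 fold change 4.35 ± 0.53, adjusted p = 1.46e-06). Its IL-1b libraries were all above its SS libraries. Vegfa, Gdnf and Ereg, factors for vessels, nerves and epithelium, had log2 fold changes of 1.08, 2.03 and 2.01, and Pdgfd, a ligand of PDGF receptors, fell (-1.24, adjusted p = 5.23e-04). The others that fell were Igf1 (-0.81, adjusted p = 0.0433, and 0.0567 to 0.155 without the filter, the number 4 libraries, the block, IL-1b library 1, 2 or 4 or SS library 1, 2 or 3), Vegfd (-1.24, adjusted p = 0.0279, and 0.0547 to 0.0801 without the filter, the block, IL-1b library 1, 2 or 4 or SS library 1, 2 or 3), Angpt1 (-1.01, adjusted p = 0.0328, and 0.0802 to 0.195 without the filter, IL-1b library 1, 2 or 3 or SS library 1, 2 or 3 or with the compared groups alone) and Angpt2 (-2.78, adjusted p = 0.00106, and 0.18 without the block), the last of which antagonizes Angpt1 at the receptor TEK. In number 4 Angpt1 was higher in CPM with IL-1b. Of the IGF-binding proteins 1 of 6 tested members rose and 0 fell (median log2 fold change -0.25), namely Igfbp7 (0.44, adjusted p = 0.0402, and 0.0529 to 0.566 without the filter, the block, IL-1b library 1, 2 or 3 or SS library 2, 3 or 4 or with scaling by total counts).

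Among immediate-early, AP-1 and related genes at 24 h 9 of 25 tested members rose and 1 fell (median log2 fold change 0.21). 2 fell without the number 4 libraries or with the compared groups alone or scaling by total counts. Cebpd and Cebpb, factors that bind C/EBP motifs, were at 210.4, 213, 194 and 240.1 CPM and 39.7, 42.9, 41.3 and 64.3 CPM in IL-1b libraries. In SS libraries they were at 53.9, 35.2, 53.7 and 55.9 CPM and 9.59, 9.25, 9.91 and 17.5 CPM. Their log2 fold changes were 2.10, adjusted p = 4.94e-08 and 2.04, adjusted p = 7.37e-10, with no overlap for either. Junb and Fosl1, AP-1 subunits, had changes of 1.79 and 1.81, and Spry1, an inhibitor of receptor kinase signalling, was the 1 member that fell (-1.65, adjusted p = 1.41e-05). In the cell cycle list 2 of 30 tested members rose and 2 fell (median log2 fold change -0.15). The risers were Tyms (0.73, adjusted p = 0.0145, and 0.0718 without SS library 2), of thymidylate synthesis, and Ccne1 (0.50, adjusted p = 0.0182, and 0.0652 to 0.103 without the number 4 libraries, the block or SS library 2 or 4), a cyclin. The fallers were Mcm7 (-0.49, adjusted p = 0.00728), a replicative helicase subunit, and Cdkn1b (-0.52, adjusted p = 0.00206, and 0.203 without the block), a cyclin kinase inhibitor. 1 rose and 1 fell without the replicate block. 0 rose without SS library 2, and 1 rose without SS library 4, and 5 rose with the compared groups alone. 4 fell with scaling by total counts, and 5 fell with the compared groups alone.

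Of the fibroblast identity genes 3 of 17 tested members rose and 8 fell (median log2 fold change -0.22). 1 rose and 2 fell without the replicate block. 1 rose without IL-1b library 2 or SS library 1 or 3. Gsn, gelsolin, was at 1370.3, 1343, 944 and 849 CPM in IL-1b libraries and 3798, 5169, 2539.6 and 2329 CPM in SS libraries (log2 fold change -1.59 ± 0.12, adjusted p = 3.64e-10). Ly6a, which encodes the antigen Sca-1, was at 308, 456, 219.5 and 120.0 CPM in IL-1b libraries and 64.3, 109.6, 87.9 and 61.5 CPM in SS libraries (log2 fold change 1.69 ± 0.26, adjusted p = 2.34e-05). Both differed in every library pair, in opposite directions. The other risers were Pi16 (1.50, adjusted p = 0.0203, and 0.0542 to 0.461 without the filter, the number 4 libraries, the block, IL-1b library 2 or SS library 1, 3 or 4), a marker of adventitial fibroblasts, and Pdgfra (0.61, adjusted p = 0.0176, and 0.0511 to 0.442 without the block, IL-1b library 2 or SS library 1 or 3), a growth factor receptor.

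Markers of other cells were read in the same way. Of the leukocyte markers 4 of 15 tested members rose and 0 fell (median log2 fold change 0.25), the risers being Fcgr1 (2.53, adjusted p = 7.77e-05, and 0.113 without the block), Mrc1 (1.84, adjusted p = 6.03e-04, and 0.171 without the block), Itgam (1.48, adjusted p = 6.34e-05, and 0.338 without the block) and Lyz2 (0.51, adjusted p = 0.0132, and 0.0527 to 0.758 without the block, IL-1b library 3 or SS library 2), all of myeloid cells. Mesothelial markers summed to 4.03 to 6.20 CPM in IL-1b libraries and 8.55 to 15.005 CPM in SS libraries, with 3 of 6 tested members lower, Upk1b (-1.02, adjusted p = 0.0221, and 0.0706 to 0.191 without the block, IL-1b library 3 or 4 or SS library 1), Upk3b (-1.18, adjusted p = 0.00464, and 0.0724 without the block) and Lrrn4 (-2.71, adjusted p = 4.23e-04). Schwann markers summed to 6.96 to 9.46 CPM in IL-1b libraries and 10.4 to 14.9 CPM in SS libraries, with 1 of 3 lower, S100b (-1.49, adjusted p = 1.51e-04, and 0.113 without the block). The part of any of these cells in the results above was not tested.

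The response held within each number for the main lists. Within numbers the ratio was log2((IL-1b CPM + 0.5) / (SS CPM + 0.5)). The median of the acute-phase list was 2.39, 2.98, 2.36 and 2.83 in numbers 1 to 4, and that of the CXC chemokines was 2.47, 2.51, 2.10 and 1.61. Interferon-stimulated genes had medians of 1.93, 1.42, 1.60 and 0.87. All 4 numbers had the same sign in each of these lists, and number 4 had the lowest median for the chemokines and the interferon genes. Contractile genes had medians of -0.75, -0.79, -0.74 and -0.64, against -0.014 to -0.0011 over all genes tested. Of the 4868 genes called, 4667 moved in the direction of the call in all 4 numbers. The calls came from these same libraries with the number as a block, so that agreement is in large part set by the call.

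**Figure D3:**
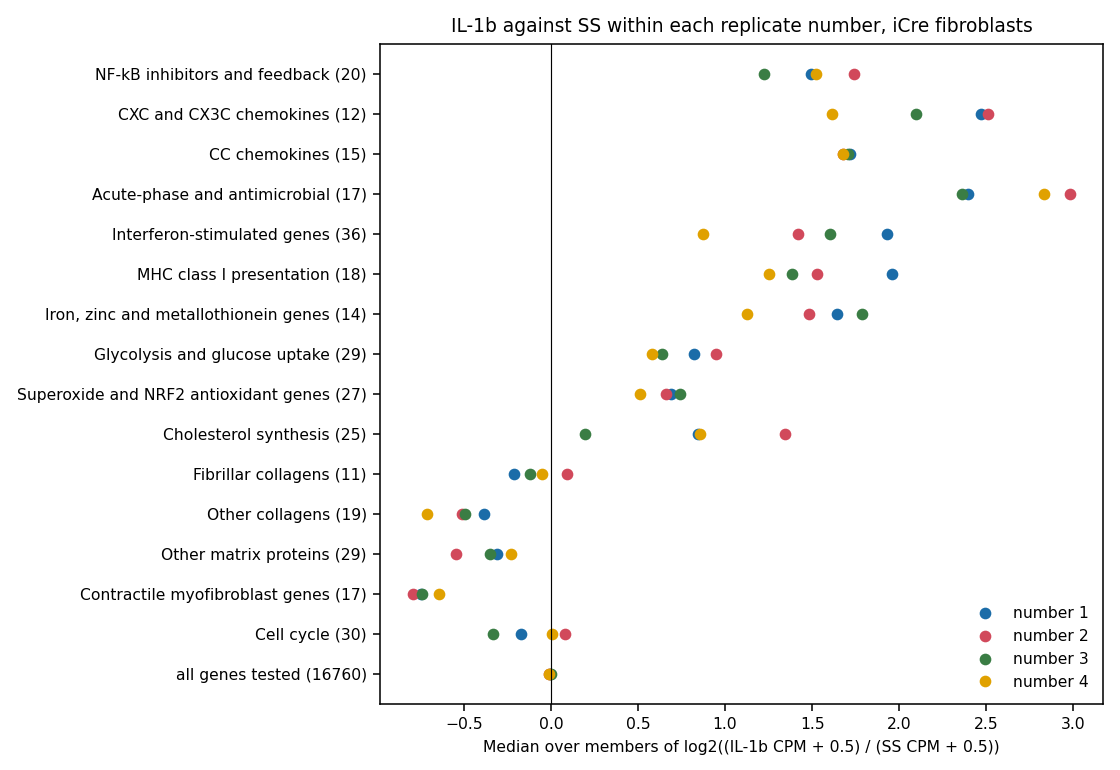
Median over each list's tested members of the log2 ratio of IL-1b to SS within replicate numbers 1 to 4 of iCre cells, computed on CPM + 0.5; each point is 1 number, and all genes tested stand in the bottom row near 0. The chemokine, acute-phase, interferon-stimulated and MHC class I lists lie right of 0 in every number, and the contractile genes lie left of 0.

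The response of iCre cells was set against that of LacZ cells to ask whether the recombined allele altered it. The titles of the LacZ libraries, which their tags contradict, were followed. Nos2, a gene far higher in iCre IL-1b than in iCre SS libraries, was at 274, 174, 296 and 283 CPM in the libraries titled LacZ IL-1b and 0.217, 0.421, 0.700 and 0.395 CPM in those titled LacZ SS. No gene passed the test of the difference (0.0% of 16760), and the smallest adjusted p was 1 in edgeR. At an unadjusted p under 0.05 there were 195 genes in edgeR and 199 in DESeq2, which also called 0. Where no gene differs, about 1 in 20 genes would be expected there, and both counts were well below that. The test of the difference was therefore conservative, and 0 calls do not show that the responses were equal. In LacZ cells 2810 genes rose (16.8%) and 2608 fell (15.6%). Those that rose in both vectors numbered 2159, which is 86.2% of the iCre risers and 76.8% of the LacZ risers. Those that fell in both numbered 1874, which is 79.3% of the iCre and 71.9% of the LacZ fallers. No gene rose in 1 vector and fell in the other.

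For single genes the difference between vectors can be read beside its error. The log2 fold changes of both correlated at r = 0.899 over 16760 genes and at r = 0.969 over the 12295 genes with an average log2 CPM of at least 1, a description across genes whose libraries share replicate numbers. Nos2 had a log2 fold change of 9.03 in iCre and 9.20 in LacZ cells, and the difference was -0.17 ± 0.30, adjusted p = 1. Cxcl5 had 7.21 and 6.63, with a difference of 0.57 ± 0.36, adjusted p = 1. The median standard error of a difference was 0.24, and a difference must be several times its error to pass. Differences well above 0.24 in a single gene could thus go undetected, and the larger ones of the genes below did not pass either. The genes with the smallest p for the difference included Batf3, an AP-1 family factor, at 0.0330, 0.570, 0.256 and 0.817 CPM in iCre IL-1b, 0, 0.184, 0 and 0.184 CPM in LacZ IL-1b, 0.0405, 0.0373, 0.111 and 0.0559 CPM in iCre SS and 0, 0.421, 0.0824 and 0.287 CPM in LacZ SS libraries. These are levels of few counts, and the difference was 3.75 ± 1.06, adjusted p = 1. Nanp, a phosphatase of sialic acid synthesis, followed with -1.06 ± 0.32, adjusted p = 1.

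**Figure D4:**
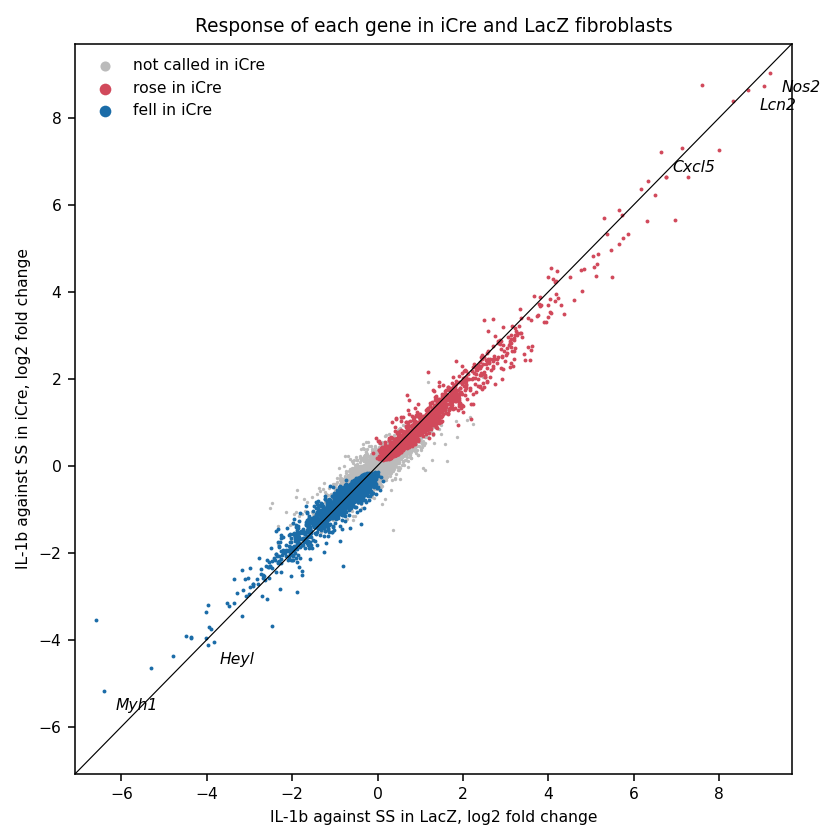
Log2 fold change of IL-1b against SS in LacZ cells (horizontal axis) and in iCre cells (vertical axis), each point 1 of the 12295 genes with an average log2 CPM of at least 1 (Sprr2e left out), with the line of equality. The points lie along that line (r = 0.969).

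IL-1b was also set against the other stimuli within iCre cells. Against TGFb, 3585 genes were higher with IL-1b (21.4%) and 3827 were lower (22.8%). Against bFGF, 1872 were higher (11.2%) and 1815 lower (10.8%). Scaling by total counts changed the balance against TGFb to 4888 higher and 2329 lower, as it moved the median of all genes to 0.151. The balance against bFGF became 1542 higher and 2062 lower. Without the block 5228 genes differed from TGFb and 1910 from bFGF.

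Nos2, Saa3, Lcn2, Cxcl1 and Cxcl5 stood among the 6 largest excesses of IL-1b over each of the other stimuli, 2 comparisons that share the IL-1b libraries. Nos2 was at 265, 232, 349 and 258 CPM in IL-1b, 0.339, 0.489, 0.498 and 0.510 CPM in TGFb and 0.428, 0.275, 0.493 and 0.288 CPM in bFGF libraries. Saa3 was at 1120.4, 1820.4, 815 and 2165 CPM in IL-1b, 1.52, 3.33, 2.49 and 2.52 CPM in TGFb and 3.15, 2.40, 3.30 and 4.09 CPM in bFGF libraries. The IL-1b libraries of both genes were above all libraries of the other stimuli. Lcn2 was higher with IL-1b by 8.70 ± 0.48, adjusted p = 7.79e-13 against TGFb and by 8.34 ± 0.47, adjusted p = 3.27e-12 against bFGF, both on the log2 scale.

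Several matrix genes were among the 6 furthest below their TGFb level. Acan, the proteoglycan aggrecan, was at 0.0330, 0.0760, 0 and 0.0845 CPM in IL-1b and 5.21, 54.04, 3.42 and 22.2 CPM in TGFb libraries, with 0 to 3 counts in each IL-1b library. Eln, elastin, was at 78.5, 113, 41.3 and 46.01 CPM in IL-1b and 1824, 14270.0, 558 and 18011 CPM in TGFb libraries (-6.54 ± 0.94, adjusted p = 4.62e-06). The groups of both genes were separate. C1qtnf3, Cilp and Adamtsl2 were also among the 6 lowest, at -8.27, -6.82 and -6.25, as was Fgf21, at 0, 0.114, 0.114 and 0 CPM in IL-1b and 15.4, 14.4, 13.6 and 3.15 CPM in TGFb libraries. Against bFGF the lowest were Ackr4, a scavenger of chemokines, Heyl, Nptx1, Col8a2, Prokr2 and Wnt2, at -4.27, -4.17, -3.91, -3.54, -3.52 and -3.48.

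The 3 stimuli share the SS libraries as control, so their changes against SS are given side by side. Timp3 had a log2 fold change of -2.58 with IL-1b, 1.49 with TGFb and -0.61 with bFGF. Acta2 had -1.26, 3.35 and -0.25, and Col1a1 had 0.23, 1.32 and -0.15. For Pkm they were 1.40, 1.12 and 0.57, and for Hk2 2.03, 2.50 and 0.67. The direct test of IL-1b against TGFb gave -4.61 ± 0.61, adjusted p = 1.45e-06 for Acta2 and 0.28 ± 0.19, adjusted p = 0.241 for Pkm.

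**Figure D5:**
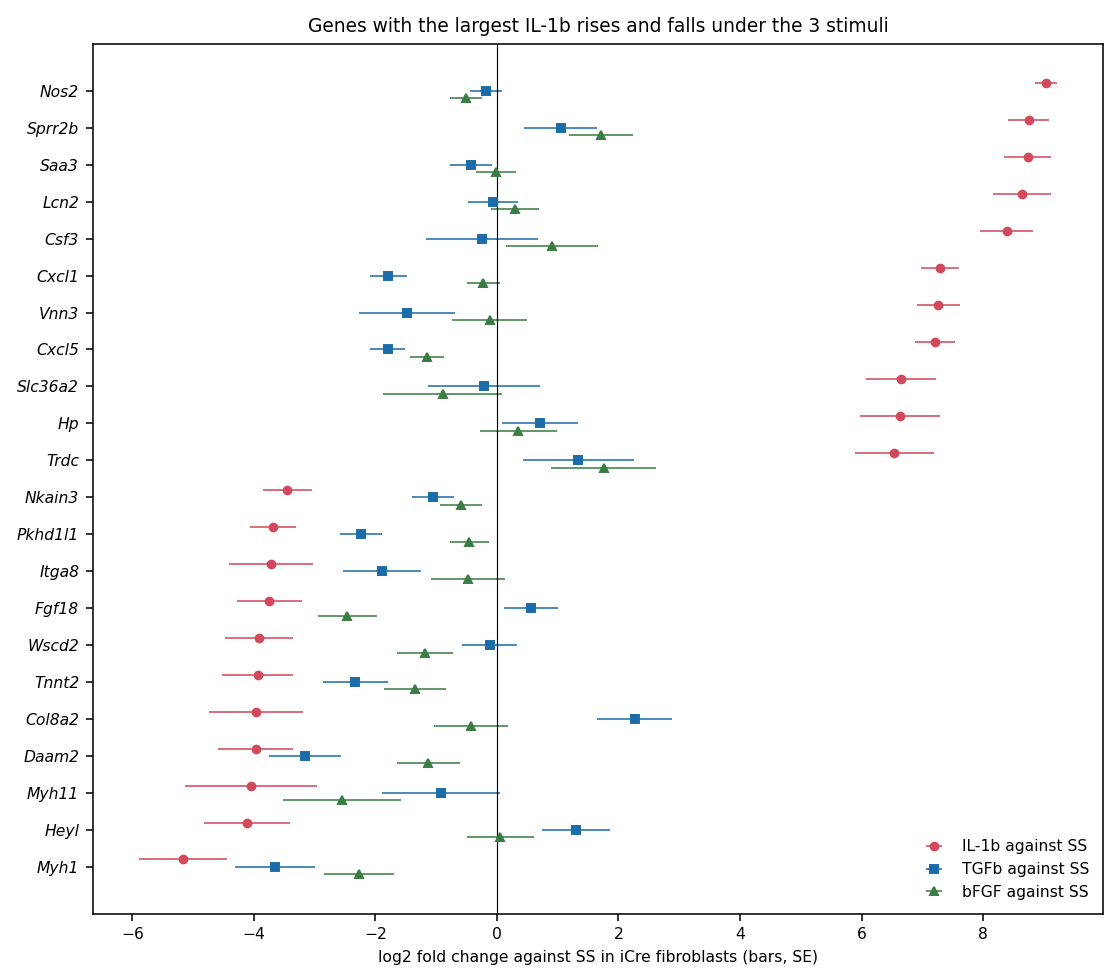
Log2 fold change against the shared SS libraries in iCre cells for the genes with the largest rises and falls with IL-1b that are named here. Sprr2e is left out, being at 0 in all 4 SS libraries, and IL-1b, TGFb and bFGF are separate marks. Bars are standard errors from the model over all 32 libraries, with n = 4 libraries per group. The genes were chosen for the size of their IL-1b change, so the outer place of the IL-1b marks is set in part by that choice. The TGFb marks of Fgf18, Col8a2 and Heyl lie right of 0.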

How the data were processed

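The values are raw counts per gene that the authors deposited for 32 libraries, in a table of 55414 Ensembl genes. Per the labels' protocols, poly(A) RNA was extracted with the RNeasy Micro kit and libraries were made with NEBNext Ultra II. FastQC 0.10.1 and HTSeq 0.10.0 are named in the submitters' processing notes, and for aligner, strand and annotation nothing is given in the sources used here. Without the strand setting, reads of a gene and of an antisense partner cannot be told apart. Groups were taken from the titles; the treatment tags match the titles for iCre libraries and contradict them for LacZ libraries.

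Genes were filtered with filterByExpr by group, which left 16760, and scaled with TMM factors in edgeR 4.0.16 (R 4.3.3). One quasi-likelihood model with robust dispersion held 8 group means and the replicate number as a block over all 32 libraries. Tests were two-sided, with Benjamini-Hochberg adjustment over all genes tested and a threshold of 0.05. An error that follows a log2 fold change is its standard error. Same-numbered libraries deviated together from their group means (r of 0.294 to 0.808 over 24 pairs), which is why numbers were taken to pair libraries. DESeq2 1.42.0, other scalings, no filter, no block and fits without single libraries were the alternatives. The procedure was tested on simulated data.

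The comparison, the 42 gene lists with 744 members (739 in the table, 689 tested) and the motifs were chosen with earlier results of these data known, so lists are described by counts and medians only. Named were Pkm, Map3k7 and Il1r1, the 12 largest rises and falls with separate groups and an average log2 CPM of at least 1, 6 genes per direction between stimuli, the smallest p-values of the vector difference, and members of lists. Predicted genes were not named, and a few other genes that these rules reach are not reported here. Some members of longer lists, and those named because few of their list moved that way, were chosen after their values were seen. Promoters come from RefSeq (GRCm38.p6), the build of the gene coordinates. Matplotlib 3.10.9 (Python 3.11.15) drew the plots.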

Additional observations from a re-analysis of the deposited data

Results flagged for a closer look

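Single libraries that lay far from the other 3 of their group were looked for in 68 groups of values with Dixon's ratio, and 5 were found. Chance gives about 1 in 20, which is 3.4 of 68, so the count is near that of chance. Hp, haptoglobin, was at 10.98 CPM in SS library 4 and at 0.405 to 1.94 CPM in the other SS libraries. Myh1, a skeletal muscle myosin, was at 0.0282 CPM in IL-1b library 4 and at 0.380 to 0.426 CPM in the other IL-1b libraries. Itga8, an integrin subunit, was at 263 CPM in SS library 4 and at 41.35 to 55.34 CPM in the other SS libraries. Mural cell markers summed to 156 CPM in SS library 4 and to 632 to 663 CPM in the other SS libraries. Schwann cell markers summed to 9.46 CPM in IL-1b library 3 and to 6.96 to 7.34 CPM in the other IL-1b libraries. In 4 of these 5 cases the library apart was number 4, which the count set against chance does not take into account. Counts were also compared between pairs of libraries of the same group by a chi-square divided by its degrees of freedom. Pairs with number 4 gave 146 to 232 in IL-1b and 163 to 252 in SS libraries. The other pairs gave 24 to 69.9 in IL-1b and 13 to 67.3 in SS libraries. Why number 4 differed was not tested.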

How the results depend on the processing

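The number of genes changed by IL-1b in iCre cells was 4868 with the replicate block and 2634 without the replicate block, and the number that differed between IL-1b and bFGF was 3687 with it and 1910 without it. The corresponding count against TGFb was 7412 with the block and 5228 without. Other settings of the IL-1b comparison gave 4048 (no filter on low counts) to 5550 (the compared groups alone), with 5225 in DESeq2. Leaving out 1 library gave 3559 to 4744 genes for IL-1b against SS, 6413 to 7540 against TGFb and 2912 to 3679 against bFGF. The difference between vectors called 0 genes in every setting run. Map3k7, which did not pass, had a log2 fold change of -0.048 with scaling by total counts, and of -0.011 (without IL-1b library 2) to 0.069 (without IL-1b library 4) with 1 library left out, below 0 also without IL-1b library 1 (-0.0045) or SS library 2 (-0.01). Of 208 genes named as called, 163 kept call and direction in all settings run, and the other 45 kept direction and lost the call in at least 1. Scaling by total counts turned the share of risers among calls to 40.0% for IL-1b against SS, where it was 51.5%, and to 67.7% against TGFb, where it was 48.4%. Which scaling is closer to the cells was not tested. Genes of few counts, such as Csf2 and Batf3, carry wide errors, and counts per gene say nothing of PKM isoforms.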
